A study of Homo sapiens with 6 samples.

Results

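The FOS and JUN genes encode the subunits of AP-1, a transcription factor that binds DNA as a dimer. The family was taken as the genes named FOS, FOSB, FOSL1, FOSL2, JUN, JUNB and JUND, which gave 7 of the 58174 genes in the table. The genes were taken by name, with earlier results of these data known. RNA was sequenced from PC9, an established human lung adenocarcinoma cell line that carries an activating deletion in EGFR. The knockdown group had 3 libraries from cells given an antagomir, a chemically modified antisense oligonucleotide, against tsRNA-5001a, one of the small RNAs that cells make by cleaving transfer RNAs. The control group had 3 libraries from cells given a negative control antagomir. The labels name no dose or time and do not say whether the libraries came from separate cultures. The p-values therefore rest on library-to-library spread, part or all of which may be technical. In bulk RNA, fewer cells making a transcript and less of it per cell cannot be told apart. Totals ran from 32342017 to 40066223 counts in knockdown libraries and from 34623672 to 39615278 in control libraries. The tsRNA itself is not measured by gene counts.

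FOS proteins do not form stable dimers with each other and bind DNA mainly as dimers with a JUN protein, whereas JUN proteins also pair among themselves. FOS, FOSB, JUN and JUNB are immediate early genes, switched on within minutes of growth factor or stress signals through MAP kinases. In epithelial cancer cells with active EGFR and RAS signalling, AP-1 is known for driving genes of growth and invasion, and FOSL1 is often its main FOS family subunit. The epithelial identity of the cells was checked with 7 markers. EPCAM, CDH1, EGFR and the keratins KRT7, KRT8, KRT18 and KRT19 were above 0 in every library, and together they reached 12400 to 15900 TPM in knockdown and 13300 to 14100 TPM in control libraries. Of these 7, 0 passed the gene test given further on. TPM is the deposited level, scaled for transcript length and library total. The sum of 7 fibroblast markers was 15.5 to 26.3 TPM in knockdown and 10.5 to 13.9 TPM in control libraries, with COL1A1 highest and LUM at 0 counts in all libraries. PDGFRB passed the test and was higher after knockdown, at 2.44, 2.23 and 3.58 TPM against 0.367, 0.163 and 0.278 TPM in control libraries. DCN had 0.195 to 1.7 TPM, and COL1A2, COL3A1 and THY1 had at most 0.05 TPM in any library. The sum of 6 immune markers was 65.5 to 81.3 TPM in knockdown and 53.8 to 67.0 TPM in control libraries, with CD68 highest and none at 0 in all libraries. The sum of 5 endothelial markers was 17.0 to 24.4 TPM in knockdown and 12.1 to 18.6 TPM in control libraries, with CDH5 highest and none at 0 in all libraries. Their part in the results was not tested.

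Promoters of 6 members are shown because the genes of the family are themselves known targets of factors that bind the cAMP response element, whose core reads TGACG. The sequences are from RefSeq on GRCh38.p14, 5′ to 3′ on the strand of the gene, and positions are counted upstream from the RefSeq transcript start. Capitals mark each TGACG on either strand. FOS is shown from 250 to 55 and FOSB from 250 to 2 bases upstream, each up to the start of the gene in the deposited table. JUN, JUNB and JUND are shown around their matches, and FOSL2 around the nearer of its pair of matches. In the deposited table JUN starts at 58784327 and FOSL2 at 28392448, before their RefSeq starts at 58784047 and 28392858. The JUN and FOSL2 matches given here therefore lie inside the spans of these genes in the deposited table. FOSL1 was not in the promoter table.
FOS (chr14:75278578-75278773, plus strand): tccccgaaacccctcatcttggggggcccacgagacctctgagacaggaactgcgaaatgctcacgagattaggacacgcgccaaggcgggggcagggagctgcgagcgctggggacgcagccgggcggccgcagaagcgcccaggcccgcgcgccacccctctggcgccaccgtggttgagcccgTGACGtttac
FOSB (chr19:45467746-45467994, plus strand): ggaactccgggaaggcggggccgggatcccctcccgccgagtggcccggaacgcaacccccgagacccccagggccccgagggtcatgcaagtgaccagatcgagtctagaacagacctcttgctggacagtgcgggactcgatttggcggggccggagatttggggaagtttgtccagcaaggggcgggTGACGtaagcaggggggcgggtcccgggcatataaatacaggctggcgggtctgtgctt
FOSL2 (chr2:28392780-28392808, plus strand): ggagtctggggtTGACGtgagtgaatcca
JUN (chr1:58784154-58784182, minus strand): gagtctccatggTGACGggcgggcccgcc
JUNB (chr19:12791329-12791373, plus strand): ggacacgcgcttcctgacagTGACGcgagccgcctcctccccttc
JUND (chr19:18281684-18281842, minus strand): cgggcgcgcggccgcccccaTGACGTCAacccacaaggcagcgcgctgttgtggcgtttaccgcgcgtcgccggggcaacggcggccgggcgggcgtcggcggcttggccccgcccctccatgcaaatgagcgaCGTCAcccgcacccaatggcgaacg

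All 6 promoters held TGACG in the 250 bases before the RefSeq start. So did 21.2% of the 35116 such windows of 27305 genes in the promoter table and 24.2% of the 22198 windows of protein-coding genes. In FOS the match lay 60 to 64 bases upstream and in FOSB 56 to 60 bases upstream. In JUNB it lay 133 to 137 and in JUN 119 to 123 bases upstream. FOSL2 had a match 62 to 66 bases upstream and another, on the opposite strand, 197 to 201 bases upstream. JUND alone of these held the full palindrome TGACGTCA, 193 to 200 bases upstream, which contains TGACG on each strand, and a further TGACG on the opposite strand. The palindrome occurred in 1.65% of all windows. The sequence TGACATCA, known as a site that JUN protein itself binds, lay 60 to 67 bases upstream in JUN and occurred in 2.37% of all windows on either strand. The general AP-1 site TGANTCA was in 0 of the 6 windows and in 6.57% of all windows, searched on both strands. The CArG box, the site of serum response factor, was in 0 of the 6 windows and in 1.16% of all windows, searched on both strands. Bases more than 250 upstream were not searched, so sites there would be missed. TATAAA was searched on the strand of the gene and was found in FOS, FOSB and JUNB and in 6.80% of all windows, in FOS 28 to 33 bases upstream, past the stretch shown. A match is a description of letters, not a site in use.

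After knockdown FOS and FOSB had the highest fold changes of the family, 1.73-fold and 1.95-fold, and JUND had the lowest, 0.801-fold. The other immediate early members, JUN and JUNB, were at 0.852-fold and 0.981-fold. The libraries of the groups did not overlap in FOS, FOSB and JUND, as in 24.3% of all genes, and overlapped in JUN and JUNB. Of the 7 members, 0 passed an adjusted p of 0.05 in edgeR's quasi-likelihood test over all genes. In the same test 223 of 19040 genes passed, or 1.17% (1.10% higher and 0.0735% lower). At an unadjusted p under 0.05 there were 3 members, FOS, FOSB and JUND, where 16.5% of all genes stood. DESeq2 called FOS and FOSB higher and 0 members lower, where it called 3.69% of all genes, 2.54% higher and 1.15% lower. CPM, the counts scaled to the TMM-adjusted library total, did not overlap between the groups for 3 members, 2 higher and 1 lower. Over all genes this was so for 24.3%, with 13.4% higher and 10.8% lower. The median log2 fold change of the 7 members was 0.04, beside 0.05 for all tested genes. The median was 0.54 in the FOS family and -0.23 in the JUN family, and the difference between the families was not tested.

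**Figure D1:**
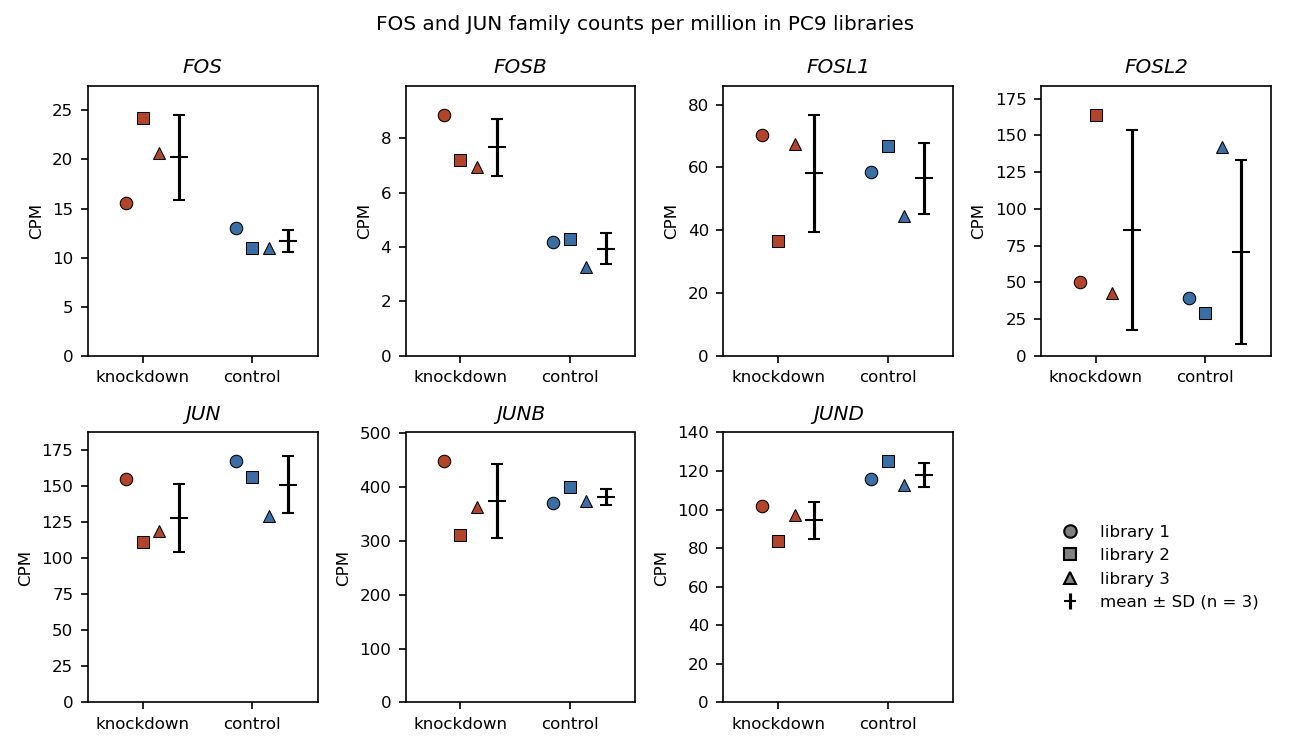
Scaled counts (CPM) of each FOS and JUN gene in the 3 knockdown (red) and 3 control (blue) libraries, with the mean and SD in black. FOS and FOSB sit higher in every knockdown library, JUND sits lower, and FOSL2 has 1 high library in each group.

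FOS (ENSG00000170345; chromosome 14, 75278774 to 75282230, plus strand), the founding member and a short-lived activator, was at 15.6, 24.2 and 20.7 CPM in knockdown libraries 1 to 3, against 13.0, 11.0 and 11.0 CPM in control libraries 1 to 3. Every knockdown library was above every control library, with knockdown library 1 closest to them. Means were 20.2 ± 4.33 CPM in knockdown and 11.7 ± 1.15 CPM in control libraries (SD, n = 3 each). The log2 fold change was 0.79 ± 0.19 (SE), which edgeR gave an adjusted p of 0.112. DESeq2 gave 0.75 ± 0.21 (SE) and an adjusted p of 0.0161. Without knockdown library 2, the highest, the log2 fold change was 0.62 with an edgeR adjusted p of 0.18.

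FOSB (ENSG00000125740; chromosome 19, 45467995 to 45475179, plus strand), a late-acting immediate early activator, was the scarcest member by TPM. It was at 8.85, 7.21 and 6.93 CPM in knockdown libraries 1 to 3, against 4.20, 4.31 and 3.27 CPM in control libraries 1 to 3. Every knockdown library was above every control library. Means were 7.66 ± 1.04 CPM in knockdown and 3.93 ± 0.569 CPM in control libraries (SD, n = 3 each). The log2 fold change was 0.96 ± 0.20 (SE), which edgeR gave an adjusted p of 0.0683. DESeq2 gave 0.94 with an adjusted p of 0.00519, and edgeR with library size as the only scaling gave 1.09 with an adjusted p of 0.0347. Under that scaling 1.68% of all genes passed, 1.63% higher and 0.0473% lower, and FOSB was the 1 member that did. These counts rested on 245 to 335 reads per knockdown library and 125 to 157 per control library. FOSB lies within the span of ERCC1, a DNA repair gene on the opposite strand, and whether counting used strand is not given in the sources used here, so reads of the pair may be shared. ERCC1 itself was at 112, 96.1 and 99.3 CPM in knockdown and 97.7, 116 and 108 CPM in control libraries, a log2 difference of -0.06 (edgeR adjusted p 0.835).

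FOSL1 (ENSG00000175592; chromosome 11, 65892049 to 65900573, minus strand) and FOSL2 (ENSG00000075426; chromosome 2, 28392448 to 28417312, plus strand) encode FRA1 and FRA2, which lack the strong activation domain of FOS. FOSL1 was at 70.2, 36.7 and 67.3 CPM in knockdown libraries 1 to 3 and at 58.4, 66.7 and 44.5 CPM in control libraries 1 to 3. The groups overlapped, with knockdown library 2 the lowest of all 6. Its log2 fold change was 0.04 ± 0.25 (SE) (edgeR adjusted p 0.953). FOSL2 was at 50.4, 164 and 42.9 CPM in knockdown libraries 1 to 3 and at 39.7, 29.3 and 142 CPM in control libraries 1 to 3. It was thus high in 1 library of each group, knockdown library 2 and control library 3, and the groups overlapped. Those libraries were also the lowest of their groups for FOSL1. The log2 fold change of FOSL2 was 0.28 ± 0.67 (SE) (edgeR adjusted p 0.865). It was -0.61 without knockdown library 2, 1.31 without control library 3 and 0.43 without both. Without both libraries 0 members passed, where 0.186% of all genes did, 0.166% higher and 0.0207% lower.

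In knockdown library 2 FOSL2 was 3.52 times the mean of knockdown libraries 1 and 3, and in control library 3 it was 4.13 times the mean of control libraries 1 and 2. In the 3 nearest tested genes on each side the same ratios ran from 0.386 to 1.45. Both ends came from genes of low level, the lower at 0.062 to 0.481 CPM and the upper at 0.502 to 1.06 CPM over all libraries. BABAM2, upstream of it, had ratios of 0.959 and 1.17 in the same comparisons, and PPP1CB, downstream, had 0.878 and 1.01. FLJ31356, which overlaps the start of FOSL2 on the opposite strand, had 0.935 and 0.777, and reads of the pair may be shared. FLJ31356 was at 2.75, 2.77 and 3.17 CPM in knockdown and 2.33, 1.18 and 1.36 CPM in control libraries. Its log2 difference was 0.83 (edgeR adjusted p 0.225), and the groups did not overlap, as in 24.3% of all genes. Over the 6 libraries RHOQ and MGAT4A were the nearest of 12855 genes to FOSL2. RHOQ, a small GTPase gene on the same chromosome at 46541806 to 46583121, had ratios of 3.44 and 3.54. MGAT4A, a glycosyltransferase gene at 98619106 to 98731126 on that chromosome, had 2.76 and 2.07. What sets these libraries apart was not tested.

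**Figure D2:**
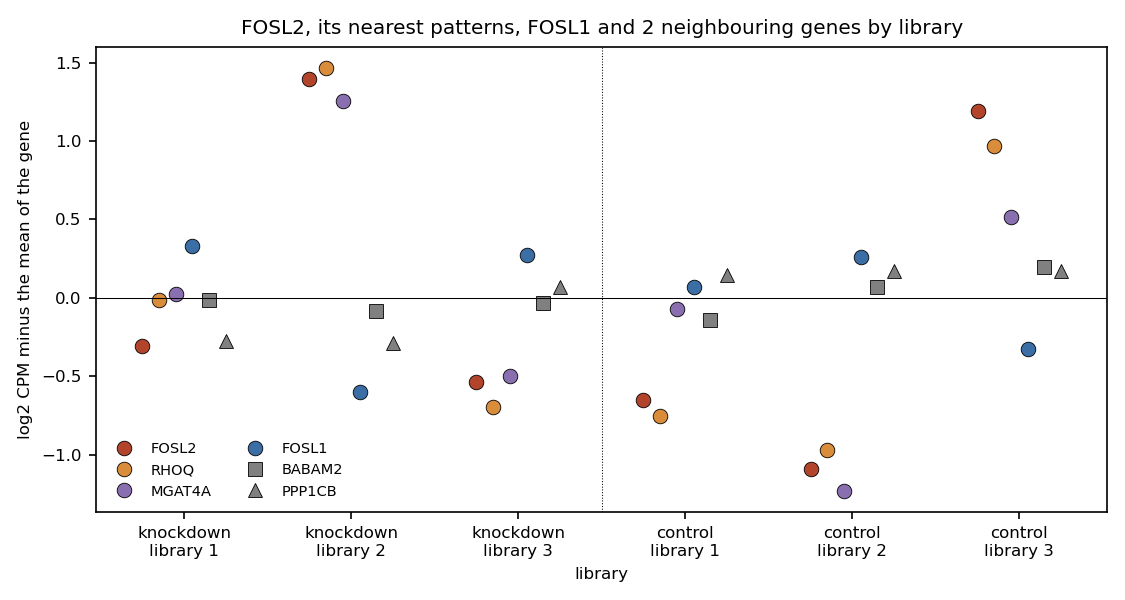
Log2 CPM of FOSL2, RHOQ, MGAT4A, FOSL1, BABAM2 and PPP1CB in each library, minus the mean of the gene over the 6 libraries. FOSL2, RHOQ and MGAT4A are high in knockdown library 2 and control library 3, where FOSL1 is low. The neighbouring genes BABAM2 and PPP1CB show no rise of that size there, though BABAM2 has its highest value, 57.9 CPM, in control library 3.

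JUN (ENSG00000177606; chromosome 1, 58780788 to 58784327, minus strand), the strongest activator of its family, was at 155, 111 and 119 CPM in knockdown libraries 1 to 3 and at 167, 156 and 129 CPM in control libraries 1 to 3. The groups overlapped, since knockdown library 1 was above control library 3. Its log2 fold change was -0.23 ± 0.16 (SE) (edgeR adjusted p 0.517). JUNB (ENSG00000171223; chromosome 19, 12791496 to 12793315, plus strand), a weaker activator that can restrain JUN, was at 448, 312 and 364 CPM in knockdown libraries 1 to 3 and at 371, 400 and 375 CPM in control libraries 1 to 3. The knockdown libraries held both its highest and its lowest value. Its log2 fold change was -0.03 ± 0.14 (SE) (edgeR adjusted p 0.943), and its sign turned with library size as the only scaling, where it was 0.09. JUNB lies within the span of HOOK2 on the opposite strand, which was at 63.9, 49.9 and 64.9 CPM in knockdown and 72.5, 80.0 and 68.7 CPM in control libraries (edgeR adjusted p 0.329), and reads of the pair may be shared.

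JUND (ENSG00000130522; chromosome 19, 18279760 to 18281622, minus strand), expressed in most resting cells, was at 102, 83.9 and 97.0 CPM in knockdown libraries 1 to 3, against 116, 125 and 113 CPM in control libraries 1 to 3. Every knockdown library was below every control library. Means were 94.4 ± 9.56 CPM in knockdown and 118 ± 6.20 CPM in control libraries (SD, n = 3 each). The log2 fold change was -0.32 ± 0.12 (SE), the unadjusted p was 0.0302 and the edgeR adjusted p was 0.259. DESeq2 gave -0.35 with an adjusted p of 0.242.

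**Figure D3:**
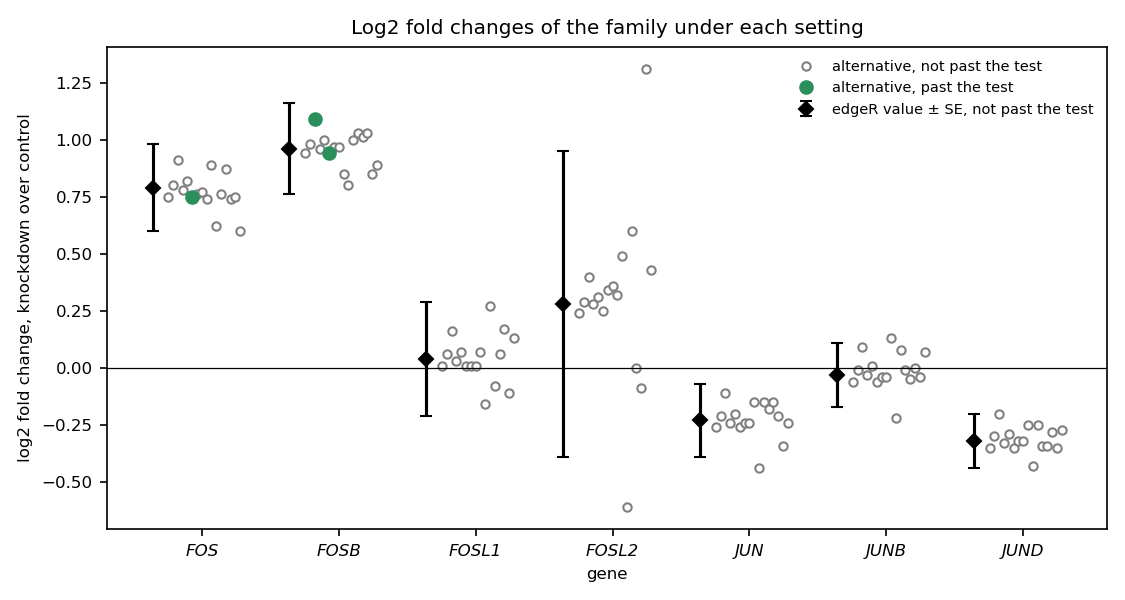
Log2 fold change, knockdown over control, of each member in edgeR (black, with its standard error) and under each of 16 alternatives (circles, filled green where the adjusted p was under 0.05). FOS and FOSB stay above 0 and JUN and JUND below 0 under every one, while only FOS under DESeq2 and FOSB under DESeq2 and library size scaling pass.

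The levels of the genes can be compared with each other only per length, for which the deposited TPM were used. No TMM adjustment was applied to these TPM. The factors by which TMM scaled the library totals were 1.0163 to 1.064 in knockdown and 0.9325 to 0.9773 in control libraries. Differences between the groups in TPM are therefore not on the scale of the CPM and fold changes above. JUNB was the most abundant member, at 373 ± 51.2 TPM in knockdown and 327 ± 9.99 TPM in control libraries (SD, n = 3 each). JUND followed at 92.4 ± 5.42 TPM in knockdown and 99.0 ± 3.65 TPM in control libraries, and in both groups the ranges of JUNB and JUND were apart from each other and from the next gene. FOSL1 had 72.2 ± 20.2 TPM in knockdown and 62.3 ± 10.3 TPM in control libraries, and JUN had 65.8 ± 9.05 TPM in knockdown and 66.5 ± 10.3 TPM in control libraries. These neighbours overlapped in both groups and changed places between them. FOS had 30.3 ± 7.10 TPM in knockdown and 15.2 ± 4.81 TPM in control libraries, and FOSL2 had 24.9 ± 19.6 TPM in knockdown and 17.3 ± 15 TPM in control libraries. FOS and FOSL2 also overlapped in both groups. FOSB was lowest, at 5.78 ± 2.20 TPM in knockdown and 2.15 ± 0.231 TPM in control libraries.

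**Figure D4:**
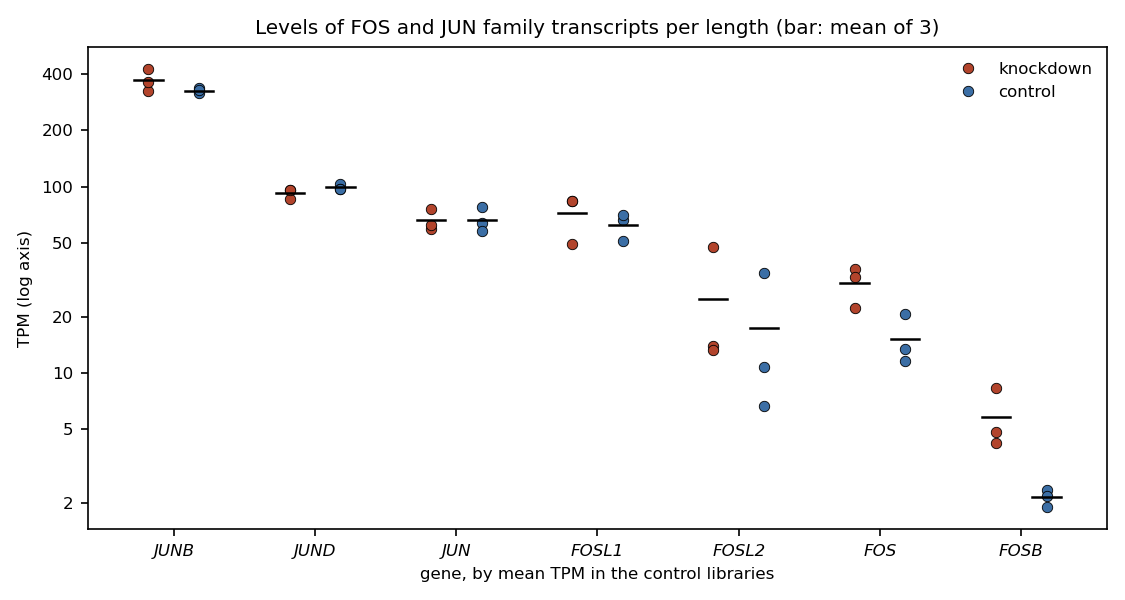
Deposited level per length (TPM, log axis) of each member in the 3 knockdown (red) and 3 control (blue) libraries, with a bar at the mean, ordered by the control mean. JUNB stands far above the others and FOSB lowest, while JUN and FOSL1, and FOSL2 and FOS, overlap.

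In sum the 4 FOS genes had 128, 137 and 134 TPM in knockdown libraries 1 to 3, against 99.9, 90.6 and 100 TPM in control libraries 1 to 3. These sums did not overlap, and the share of all genes that did not overlap in TPM was not computed. The 3 JUN genes had 600, 472 and 524 TPM in knockdown libraries 1 to 3 and 517, 477 and 483 TPM in control libraries 1 to 3, and these overlapped. FOS genes thus made up 17.6% to 22.5% of the summed TPM of the family in knockdown and 16.0% to 17.2% in control libraries. The 22.5% was in knockdown library 2, where FOSL2 alone made up 7.81%. FOSL2 made up 5.9% in control library 3 and 1.17% to 2.0% in the remaining libraries. It was at 14.0, 47.5 and 13.2 TPM in knockdown libraries 1 to 3 and 10.7, 6.63 and 34.4 TPM in control libraries 1 to 3. Sums without FOSL2 were not computed, so the higher sums cannot be read as a rise of the FOS genes as a whole. JUNB alone made up 53.6% to 58.8% in knockdown and 54.5% to 56.2% in control libraries. JUND made up 13.1% to 14.5% in knockdown and 16.6% to 17.1% in control libraries. These sums are descriptions with no test and no TMM adjustment. The depth behind a share is that of the counts above, and intervals for counting error were not computed because TPM are scaled.

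The length that the TPM of a gene assume can be read from its counts per TPM, set against JUN, which has 1 annotated transcript of 3540 bases. For JUNB, also with 1 transcript, of 1820 bases, this gave 1819 to 1820 bases in all libraries. For FOSL2 it gave 5981 to 6593 bases, for FOSL1 1369 to 1466 and for JUND 1848 to 1863. For FOS it gave 1210, 1280 and 1158 bases in knockdown libraries 1 to 3 and 1035, 1362 and 1313 bases in control libraries 1 to 3, where its 10 annotated transcripts run from 249 to 2158 bases. For FOSB it gave 1853, 2839 and 3021 bases in knockdown libraries 1 to 3 and 2929, 2830 and 2737 bases in control libraries 1 to 3. FOSB in knockdown library 1 was therefore scaled to a shorter length than elsewhere, and its 8.30 TPM there stood beside 4.83 and 4.20 TPM in the other knockdown libraries. The CPM of FOSB are not divided by these lengths. How reads were assigned to genes and transcripts is not given in the sources used here, so the deposited counts may themselves be sums of estimates per transcript.

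Around the family, 135 genes in 8 lists by role were followed, of which 132 were tested, 10 rose and 0 fell, or 7.58% against 1.17% of all genes. Their median log2 fold change was 0.11, beside 0.05 for all tested genes. The lists were drawn up with earlier results of these data known, among them the rises of ARC, ATF3, KLF4, NR4A3, AREG, HBEGF and IL6, so this share is not independent evidence. The 10 became 4, 5 and 3 without knockdown libraries 1, 2 and 3, and 4, 6 and 3 without control libraries 1, 2 and 3.

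Of 10 bZIP genes whose proteins pair with FOS or JUN proteins, 2 rose and 0 fell, with a median log2 fold change of 0.17. ATF3, a stress-induced partner of JUN proteins, rose 6.25-fold (edgeR adjusted p 0.00411). CREB5, a cAMP response element binder that pairs with JUN, was at 10, 12.5 and 11.8 CPM in knockdown libraries 1 to 3, against 6.12, 5.27 and 6.02 CPM in control libraries 1 to 3. It rose by 0.98 ± 0.17 (SE) on the log2 scale, which edgeR gave an adjusted p of 0.038. CREB5 lost the call in 11 of 16 alternatives, every single library left out among them, while ATF3 kept it in all 16. Of 13 MAF, CNC and BACH genes, 12 were tested and 0 fell, with a median of 0.26. MAFA, a large MAF gene, rose at a low level, with 2.01, 1.82 and 2.0 CPM in knockdown libraries 1 to 3 against 0.428, 0.186 and 0.105 CPM in control libraries 1 to 3 (edgeR adjusted p 0.0232). MAFA lost the call in 7 of 15 alternatives.

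Of 25 kinases upstream of AP-1, 0 passed in edgeR, the median being 0.11 on the log2 scale and the values -0.33 to 1.09. MAPK14, which encodes the stress kinase p38 alpha, was at 89.5, 46.3 and 91.1 CPM in knockdown libraries 1 to 3, against 43.8, 35.8 and 34.9 CPM in control libraries 1 to 3 (0.99 on the log2 scale, edgeR adjusted p 0.125). Without knockdown library 2, its lowest in that group, MAPK14 was at 1.23 on the log2 scale and passed (edgeR adjusted p 0.0211). MAPK10, a JNK gene, was at 0.908 ± 0.224 CPM in knockdown and 0.429 ± 0.193 CPM in control libraries (SD, n = 3 each; edgeR adjusted p 0.26). Of 12 transcription factors that act on FOS and JUN promoters, 0 passed, and CREM and MEF2D, those of lowest p, were at -0.45 and 0.23 on the log2 scale (edgeR adjusted p 0.297 and 0.395). Of 10 MAP kinase phosphatases 0 passed. DUSP1, an immediate early phosphatase that shuts off MAP kinases, was at 35.3 ± 1.17 CPM in knockdown and 24.0 ± 3.98 CPM in control libraries (SD, n = 3 each), and its adjusted p in edgeR was 0.154. DUSP16, another of them, was at 55.1 ± 2.19 CPM in knockdown and 43.8 ± 2.38 CPM in control libraries (SD, n = 3 each; edgeR adjusted p 0.228). Of 10 genes of the turnover of AP-1 proteins and mRNAs 0 passed, with a median of -0.08 and log2 fold changes from -0.23 to 0.13. HNRNPD and ZFP36L2, which bind AU-rich mRNAs, were at -0.23 and -0.13 (edgeR adjusted p 0.485 and 0.567).

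Of 24 other immediate early genes, 3 rose and 0 fell, the median being 0.21 on the log2 scale, with 22 above 0. ARC, a neuronal immediate early gene, had 5.47 ± 0.24 (SE) (edgeR adjusted p 5.2e-05), against 0.79 for FOS. NR4A3, an orphan nuclear receptor gene, had 3.77, and KLF4, a zinc finger factor gene, had 1.37 (edgeR adjusted p 0.0346 and 0.0466). KLF4 lost the call in 11 of 16 alternatives, 5 of them with 1 library left out (control library 1 or 3, or any knockdown library). NR4A3, at 42 to 64 counts per knockdown and 0 to 6 per control library, lost the call in 8 of 15 alternatives. The difference between FOS and these genes was not tested. Of 31 known AP-1 target genes 29 were tested, 3 rose and 0 fell, with a median of 0.09 and log2 fold changes from -0.77 to 1.19. AREG and HBEGF, ligands of EGFR, had 1.16 and 1.19 (edgeR adjusted p 0.0158 and 0.0252), and the cytokine gene IL6 had 1.19 (edgeR adjusted p 0.0451). AREG, HBEGF and IL6 kept the call in 10, 8 and 3 of 16 alternatives.

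**Figure D5:**
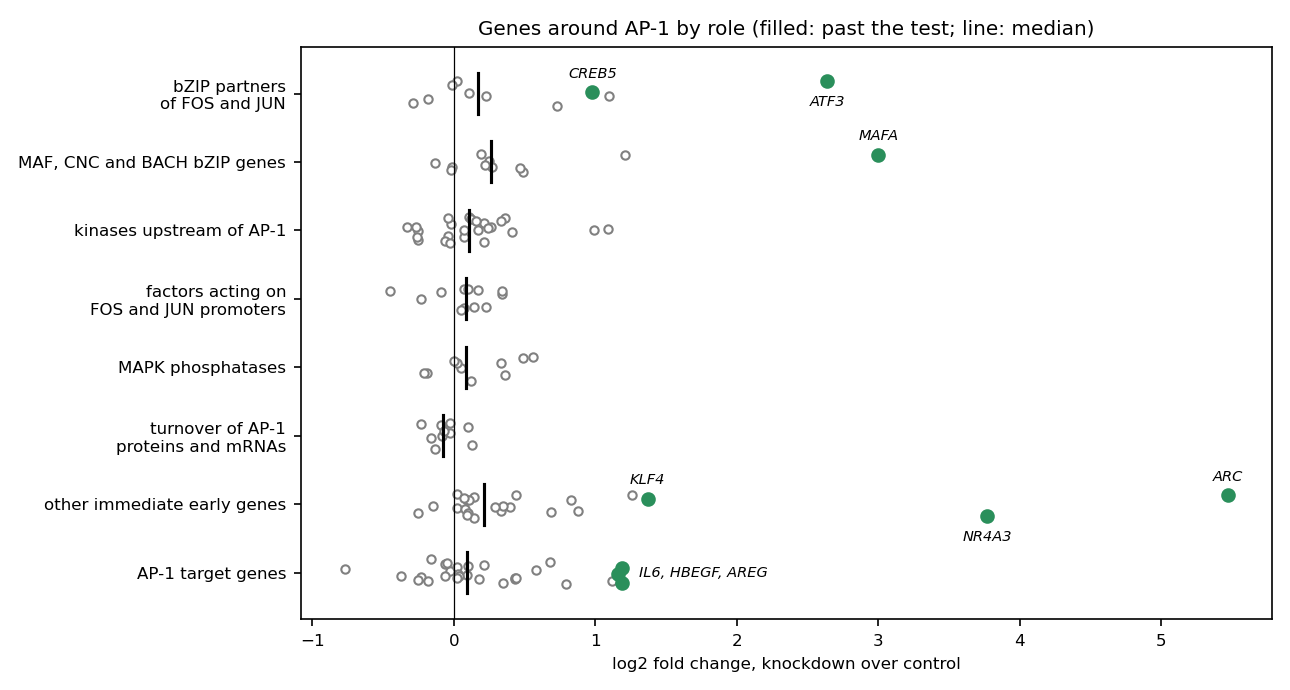
Log2 fold change, knockdown over control, of the tested genes of the 8 lists, 1 point a gene, with a line at the median of each list and genes past an adjusted p of 0.05 filled and named. The filled points are all above 0, and the medians lie between -0.08 and 0.26.

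The genes nearest to each member were sought by the root mean square difference of log2 CPM over the 6 libraries, each gene centred on its own mean, among 12855 genes. With 6 libraries nothing on shared control follows from such nearness. FOS was nearest to PLCXD2, a phospholipase C domain gene, at 0.023, where the spread of FOS itself was 0.433. The next were DUXAP10 and DUXAP9 at 0.0534 and 0.0894, pseudogenes whose similar copies make their counts uncertain. FOSB was nearest to C10orf25, DOK3 and TP53INP2 at 0.0816 to 0.0858. JUND was nearest to NADSYN1, IDH3B and LAMTOR1 at 0.00984 to 0.0206, and JUNB to SLC2A1, FKBP1A and ZFYVE28 at 0.0186 to 0.0367. JUN was nearest to SBK1, CLIP3 and GALNT9 at 0.0431 to 0.0523, and FOSL1 to GHDC, JMJD7-PLA2G4B and SMIM4 at 0.0793 to 0.0976. FOSL2, with a spread of 0.945, was at 0.178 from RHOQ, 0.397 from MGAT4A and 0.455 from LINC00998.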

How the data were processed

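RNA of 6 PC9 libraries was sequenced on an Illumina platform, and reads were quality-controlled, mapped and counted per gene by the authors, per the labels' protocols. The deposited table holds whole-number counts per gene, TPM and FPKM, 1 column of each per library. The FPKM deposited by the authors were not used. The submitters' processing notes name hg19, but 96.8% of the 57836 genes shared with GENCODE 29 (GRCh38), and all 7 members, have that release's coordinates, which are printed. For the aligner, the counter and the use of strand, nothing is stated: not given in the sources used here. Whether these whole-number counts were summed from estimates per transcript is likewise unknown.

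Low genes were removed by filterByExpr (minimum 10 counts) and the rest were scaled by TMM and tested with edgeR 4.0.16 (R 4.3.3) by its quasi-likelihood test, adjusting p over 19040 genes (Benjamini-Hochberg) at 0.05. Standard errors were derived from the F statistic. Log2 CPM for the nearest genes used a prior count of 2. DESeq2 1.42.0 and limma-voom (limma 3.58.1) were alternatives, beside other scalings and filters, the replicate block, removal of the abundance trend and single libraries left out. Leaving out 2 libraries together was chosen after seeing the data. The members and lists were chosen with earlier results of these data known. All members were named, and of each list the genes past the test, up to 4, or else up to 2 of smallest p. Of the genes this rule names, 1 is not reported here or drawn, though counts and medians over the lists include it. Other genes are named by nearness to a member or overlap with it. FLJ31356, BABAM2, PPP1CB and ERCC1 were named for their position. In simulated data of 18552 tested genes, 2.99% of 1.5-fold, 46.3% of 2-fold and 98.5% of 4-fold changes were recovered. Within a group, pairs of libraries differed with a chi-square of 33.4 to 83.2 per degree of freedom, so none were counted as 1 sample. Python 3.11.15 with matplotlib 3.10.9 drew the plots.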

Additional observations from a re-analysis of the deposited data

How the results depend on the processing

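With 3 libraries per group, 2.99% of simulated 1.5-fold and 46.3% of 2-fold changes were recovered. The fold changes of FOS and FOSB, 1.73 and 1.95, lay between these folds and were not themselves simulated. Leaving out knockdown library 2 and control library 3 together was chosen after seeing the data. For these shifts the cause was not tested. Of the 7 members, 0 passed in edgeR and 0 under 14 of 16 alternatives. With library size only, 1 passed, FOSB, and the all-gene median moved to 0.17, against 0.05, and with DESeq2 2 passed, FOS and FOSB. Adjusted p over all settings ran from 0.0161 to 0.402 for FOS and from 0.00519 to 0.271 for FOSB. JUNB turned from -0.03 to 0.09 with library size only, 0.01 with the stricter filter, 0.13 with the abundance trend removed and 0.07 without those 2 libraries. With 1 library left out log2 fold changes ran from -0.16 to 0.27 for FOSL1, -0.61 to 1.31 for FOSL2 and -0.22 to 0.08 for JUNB. The median of the members stayed within its replicate spread of 0.26, from -0.16 to 0.16. Against 223 genes past the test, there were 147 with no filter, 25 with the stricter filter, 701 with DESeq2, 126 with the abundance trend removed, 36 without those 2 libraries, 45 at an adjusted p of 0.01 and 64 to 114 with 1 library left out. Against 10 genes of the lists there were 3 with the stricter filter, 6 with the abundance trend removed, 3 without those 2 libraries, 3 at an adjusted p of 0.01 and 3 to 6 with 1 library left out. The replicate number as a block gave 34 genes, 0 members and 3 list genes. Deviations from the group means correlated by 0.008, -0.079 and -0.026 between libraries of the same number. Between libraries of unlike number the values ran from -0.05 to 0.071. Whether libraries of the same number were made together cannot be told from this, since an effect on few genes would not show over all genes.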

Other observations

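DESeq2 called 4 genes of the lists higher that edgeR did not with all libraries, beside the 10 called by both, and 0 lower. They were chosen here after their values were seen. MAPK14, the p38 alpha kinase gene, had a DESeq2 adjusted p of 0.0103, NR4A2, an orphan nuclear receptor gene, 0.00889, and CTGF, a matricellular immediate early gene, 0.0268. PTGS2, which encodes the inducible cyclooxygenase and is a known AP-1 target, had 0.00999. Their edgeR log2 fold changes were 0.99, 1.26, 0.88 and 0.79. Among immediate early genes often induced together with FOS, EGR1 had an edgeR log2 fold change of 0.02 (adjusted p 0.97) and IER2 of 0.44 (adjusted p 0.647). Among AP-1 targets of the extracellular matrix, MMP9 had -0.77 (adjusted p 0.179) and MMP1 0.68 (adjusted p 0.294), and both were chosen after their values were seen, as were EGR1 and IER2.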
